A study of Arabidopsis thaliana with 11 samples.

Results

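The proteasome subunit genes of Arabidopsis thaliana are described here by the splicing of their introns in 5 RNA fractions. The genes were taken from a fixed list of 50 gene identifiers, and all of their introns in the deposited intron tables were kept. These were 372 introns, of 121244 introns in 22121 genes in all. The list holds 23 genes of the 20S core, with 139 introns, and 27 genes of the 19S regulatory particle, with 233 introns. Of the 50 genes, 40 are named here by a RefSeq symbol, synonym or product, and the other 10 are called by their identifier. The rule that picks their introns uses no measured value.

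The plants were 10-day-old Col-0 seedlings in all groups, and whole seedlings were used, so fewer cells of a type and less RNA per cell cannot be told apart. RNAe was chromatin-bound RNA, taken from isolated nuclei, that had been cleared of both rRNA and polyadenylated RNA (2 libraries). RNAe + RNAf was chromatin-bound RNA cleared of rRNA alone (2 libraries), and the group called CB-RNA carried the same treatment label in a separate set of 2 libraries. RNAf was the polyadenylated part of chromatin-bound RNA (2 libraries), and mRNA was polyadenylated RNA (3 libraries). Each group had a single table for all of its libraries. The values below therefore have no replicate spread, and every interval and p-value covers at most counting error.

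The proteasome is the main protease for proteins tagged with ubiquitin. Its 20S core is a barrel of stacked rings, in which alpha subunits form the outer gates and beta subunits the inner chamber, and some beta subunits carry the protease sites. The 19S regulatory particle caps the barrel. Its base has a ring of RPT ATPases, which unfold the substrate, and large RPN scaffold subunits, and its lid has RPN subunits around the enzyme that removes ubiquitin. In Arabidopsis many subunits are made from a pair of gene copies, and the genes are used in nearly every cell. An intron is removed in the nucleus, often while the polymerase is still on the gene, and the reads that remain inside it show how much RNA still holds it.

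The splice site (SS) ratio is the number of reads on the intron side of a splice site over the number on the exon side. It is near 1 where nearly all RNA still holds the intron and near 0 where nearly none does. The 5ʹ SS ratio refers to the start of an intron and the 3ʹ SS ratio to its end. The ratio of an intron as a whole is given below as the reads of both sites summed, and the ratio of a gene as the reads of all its introns summed. Intervals are 95% Wilson intervals of the intronic share, turned into ratios. A read may be counted at several neighbouring splice sites, and the sums treat each count as a separate read. Intervals and p-values of summed reads may therefore be too small.

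The introns that the results turn on are printed first, from the RefSeq sequence of build TAIR10.1, 5ʹ to 3ʹ on the transcribed strand. Capitals mark the pair of bases at each intron end. The first 5 are the introns of proteasome genes that open with GC where nearly all introns open with GT. They are shown because, among introns with at least 50 exonic reads in every group, RPN5B intron 1 had the highest ratio in RNAf and PAA2 intron 5 was among the 5 highest in mRNA. RPT2b intron 1 and RPN7 intron 1 are GT introns that were also held in RNAf, and RPT2a intron 1 is the same intron in the other copy of RPT2b.
RPN5B intron 1 (chr5:25896340-25896442, minus strand): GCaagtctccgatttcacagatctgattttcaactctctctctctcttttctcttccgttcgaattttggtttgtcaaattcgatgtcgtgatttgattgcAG
RPN5A intron 1 (chr5:3092340-3092431, minus strand): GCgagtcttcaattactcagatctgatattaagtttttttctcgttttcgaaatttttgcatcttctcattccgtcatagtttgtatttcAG
PAA2 intron 5 (chr2:2234937-2235018, plus strand): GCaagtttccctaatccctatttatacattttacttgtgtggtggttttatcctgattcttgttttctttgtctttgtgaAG
PAA1 intron 5 (chr5:13766758-13766901, minus strand): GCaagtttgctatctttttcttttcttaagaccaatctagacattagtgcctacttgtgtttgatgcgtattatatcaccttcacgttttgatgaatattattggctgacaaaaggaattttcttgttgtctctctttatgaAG
RPT5B intron 4 (chr1:2937926-2938023, minus strand): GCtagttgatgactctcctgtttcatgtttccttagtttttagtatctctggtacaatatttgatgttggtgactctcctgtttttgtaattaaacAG
RPT2b intron 1 (chr2:8693210-8693289, plus strand): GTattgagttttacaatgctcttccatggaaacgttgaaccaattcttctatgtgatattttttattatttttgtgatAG
RPT2a intron 1 (chr4:14312843-14312935, plus strand): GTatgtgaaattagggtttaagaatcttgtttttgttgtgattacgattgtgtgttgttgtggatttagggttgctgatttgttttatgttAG
RPN7 intron 1 (chr4:12792363-12792460, minus strand): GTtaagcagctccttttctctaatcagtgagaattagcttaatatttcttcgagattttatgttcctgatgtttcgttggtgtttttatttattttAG

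In 2 genes the values turned on an exon rather than an intron. Both exons are printed with 10 bases of intron on each side in lower case and the exon in capitals.
PBE1 exon between introns 3 and 4 (chr1:4453044-4453115, plus strand): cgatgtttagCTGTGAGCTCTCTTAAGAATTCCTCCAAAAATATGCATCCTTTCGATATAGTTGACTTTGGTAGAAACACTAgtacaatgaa
PBD2 exon between introns 2 and 3 (chr4:8501460-8501507, plus strand): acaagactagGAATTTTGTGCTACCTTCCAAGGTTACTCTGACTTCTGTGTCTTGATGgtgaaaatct

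The introns of proteasome genes were close to other introns in length, with a median of 103 bases (59 to 979) against 99 over all introns. The genes had more of them, with a median of 8 introns per gene against 4 over all genes. Of the 372 introns, 360 lie in coding sequence and 11 in a 5ʹ UTR. All of them have the same ends in a RefSeq transcript, and 5 are kept within an exon by a RefSeq transcript. Reads on the exon sides of these introns came to 45105 in RNAe, 32634 in RNAe + RNAf, 85532 in CB-RNA, 311216 in RNAf and 1216973 in mRNA. The median intron had 50, 36, 88.5, 361.5 and 1514 exonic reads at its 5ʹ SS in those groups, in the same order. Exonic reads were thus fewest in RNAe + RNAf. Intronic reads, which also set the counting error of a ratio, were fewest in mRNA, at 4139, against 7864 in RNAe + RNAf and 12803 in RNAe.

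In RNAe, the median 5ʹ SS ratio of proteasome introns was 0.2745, against 0.308 over all introns. It was 0.212 in RNAe + RNAf and 0.25 in CB-RNA, against 0.258 and 0.284 over all introns. In RNAf it was 0.0263, against 0.0455 over all introns. In mRNA it was 0.0015, against 0.0064 over all introns. The 3ʹ SS ratios gave the same order of groups, with medians of 0.295, 0.2195, 0.283, 0.0304 and 0.0017 for RNAe, RNAe + RNAf, CB-RNA, RNAf and mRNA. Proteasome introns lay below the median of all introns in every group and at both sites, and the ratio of the medians was furthest from 1 in mRNA.

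**Figure D1:**
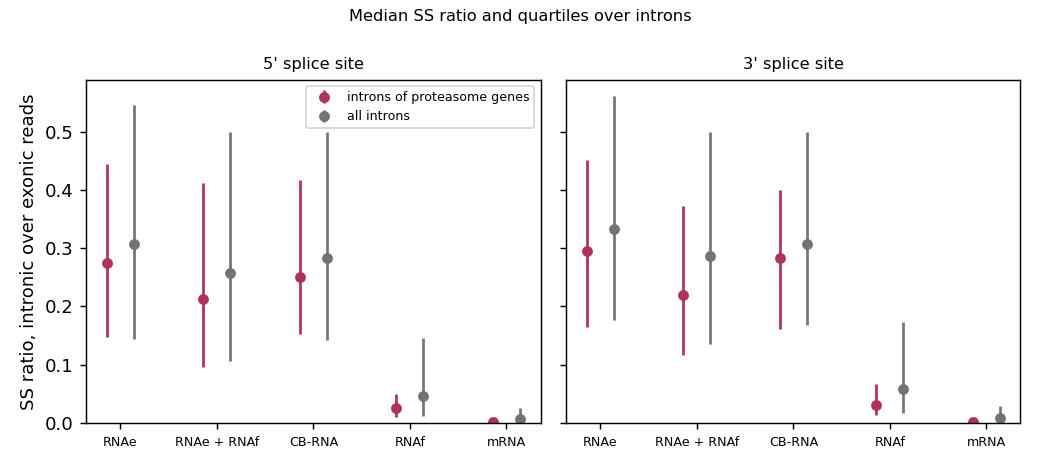
Median SS ratio (points) with the quartiles (bars) at the 5ʹ SS and the 3ʹ SS in each fraction, for introns of proteasome genes and for all introns. At the 5ʹ SS the quartiles of proteasome introns run over 0.147 to 0.444 in RNAe and over 0.0103 to 0.0487 in RNAf, where those of all introns run over 0.012 to 0.145.

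High ratios were less common among proteasome introns. A 5ʹ SS ratio of 0.5 or more was found in 19.4% of proteasome introns in RNAe, against 29.98% of all introns, in 17.9% against 25.8% in RNAe + RNAf and in 16.98% against 25.15% in CB-RNA. In RNAf the shares were 1.34% of proteasome introns (5 introns) against 6.91% of all introns, and in mRNA 0.538% against 2.02%. At the other end, 66 proteasome introns had no intronic read at either site in mRNA and 12 had none in RNAf. These shares are descriptions of pooled libraries and were not tested.

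Intronic and exonic reads of each intron were set against each other in pairs of fractions with Fisher's exact test (two-sided, Benjamini-Hochberg adjustment over every intron of the tables that had 10 or more exonic reads in the fractions compared). The first question was how much splicing lies between RNAe and RNAf. In RNAe over RNAf, 285 of 353 proteasome introns were higher at the 5ʹ SS (80.7%), where 68.1% of all introns tested were called higher. At the 3ʹ SS 293 of 356 were higher (82.3%), with a background of 69.5%. The proteasome introns lay above the background at both sites, and they were also read more deeply, since 353 of 372 had enough reads for the 5ʹ SS test, against 86071 of 121244 introns in all. Only RPN7 intron 1 was called lower in RNAe than in RNAf at the 5ʹ SS, where the background was 0.848%. At the 3ʹ SS none was called lower, with a background of 0.427%.

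The next comparison was between the polyadenylated RNA on chromatin and mRNA. In RNAf over mRNA, 276 of 372 proteasome introns were higher at the 5ʹ SS (74.2%), where 58.0% of all introns tested were called higher. At the 3ʹ SS 300 of 372 were higher (80.65%), with a background of 63.7%. None was called lower at the 5ʹ SS, where the background was 0.470%, and none at the 3ʹ SS, with a background of 0.409%. At the 5ʹ SS, 22 introns had a lower ratio in RNAf than in mRNA without passing the test. All 372 proteasome introns had enough reads for the 5ʹ SS test, against 95204 of 121244 introns in all. By direction alone, 89.25% of proteasome introns were higher in RNAf at the 5ʹ SS, against 83.2% of all introns tested. At the 3ʹ SS these shares were 90.6% and 86.8%, so the gaps were smaller than those in introns called.

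Few introns differed among the preparations that hold RNAe. In RNAe over RNAe + RNAf, 5 of 337 proteasome introns were higher at the 5ʹ SS and 2 were lower, with backgrounds of 0.853% and 0.337%. At the 3ʹ SS 4 of 342 were higher and none was lower, with backgrounds of 0.711% and 0.275%. RPN1A intron 22 and RPT5A intron 9 were called higher at both sites. In CB-RNA over RNAe + RNAf, 4 of 348 were higher and 4 lower at the 5ʹ SS, with backgrounds of 1.19% and 1.38%. At the 3ʹ SS 3 of 349 were higher and 3 lower, with backgrounds of 0.925% and 1.08%. RPN7 intron 4 was the proteasome intron called higher in CB-RNA at both sites, with a 3ʹ SS ratio of 0.233 in CB-RNA and 0.0546 in RNAe + RNAf (adjusted p = 0.000442, Fisher's exact test). In CB-RNA over mRNA, 359 of 368 were higher at the 5ʹ SS and 362 of 367 at the 3ʹ SS, with backgrounds of 91.2% and 92.9%, and none was lower at either site, with backgrounds of 0.185% and 0.127%. Counts of a few introns in these comparisons changed with the threshold.

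Summed per gene, the ratio of the median proteasome gene was 0.337 in RNAe (0.15 to 0.588 over the 50 genes). It was 0.27 in RNAe + RNAf, 0.31 in CB-RNA, 0.0561 in RNAf and 0.00294 in mRNA. The median over all genes was 0.412 in RNAe, 0.357 in RNAe + RNAf, 0.382 in CB-RNA, 0.138 in RNAf and 0.0215 in mRNA. In 49 of the 50 genes the ratio in RNAe was above that in RNAf, and that in RNAf above that in mRNA, with RNAe + RNAf and CB-RNA left out of this order. The exception was PAD2, an alpha ring gene, with 0.16 in RNAe, 0.19 in RNAf and 0.0121 in mRNA. The share of all genes in this order was not counted. In the tests below, 86.1% of all genes were called higher in RNAe than in RNAf, and 95.7% higher in RNAf than in mRNA.

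Gene-level reads were tested in the same way over all genes with at least 20 exonic reads in both fractions. In RNAe over RNAf, 48 of 50 proteasome genes were higher, where 86.1% of all genes were called higher, and none was lower, where the background was 1.13%. The genes that did not pass were PAD2 (adjusted p = 0.777, Fisher's exact test) and PBD2 (adjusted p = 0.686, Fisher's exact test). In RNAf over mRNA all 50 genes were higher, with a background of 95.7%, and none lower, with a background of 0.626%. PBD2 lost this direction without its introns 2 and 3. In CB-RNA over mRNA all 50 were higher and none lower, with backgrounds of 98.2% and 0.248%. In RNAe over RNAe + RNAf 15 of 50 were higher and none lower, with backgrounds of 17.2% and 3.0%. In CB-RNA over RNAe + RNAf 9 were higher, with a background of 13.9%, and RPN1B alone was lower, with a background of 8.53%. The shares in RNAf over mRNA and CB-RNA over mRNA were thus near their backgrounds.

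**Figure D2:**
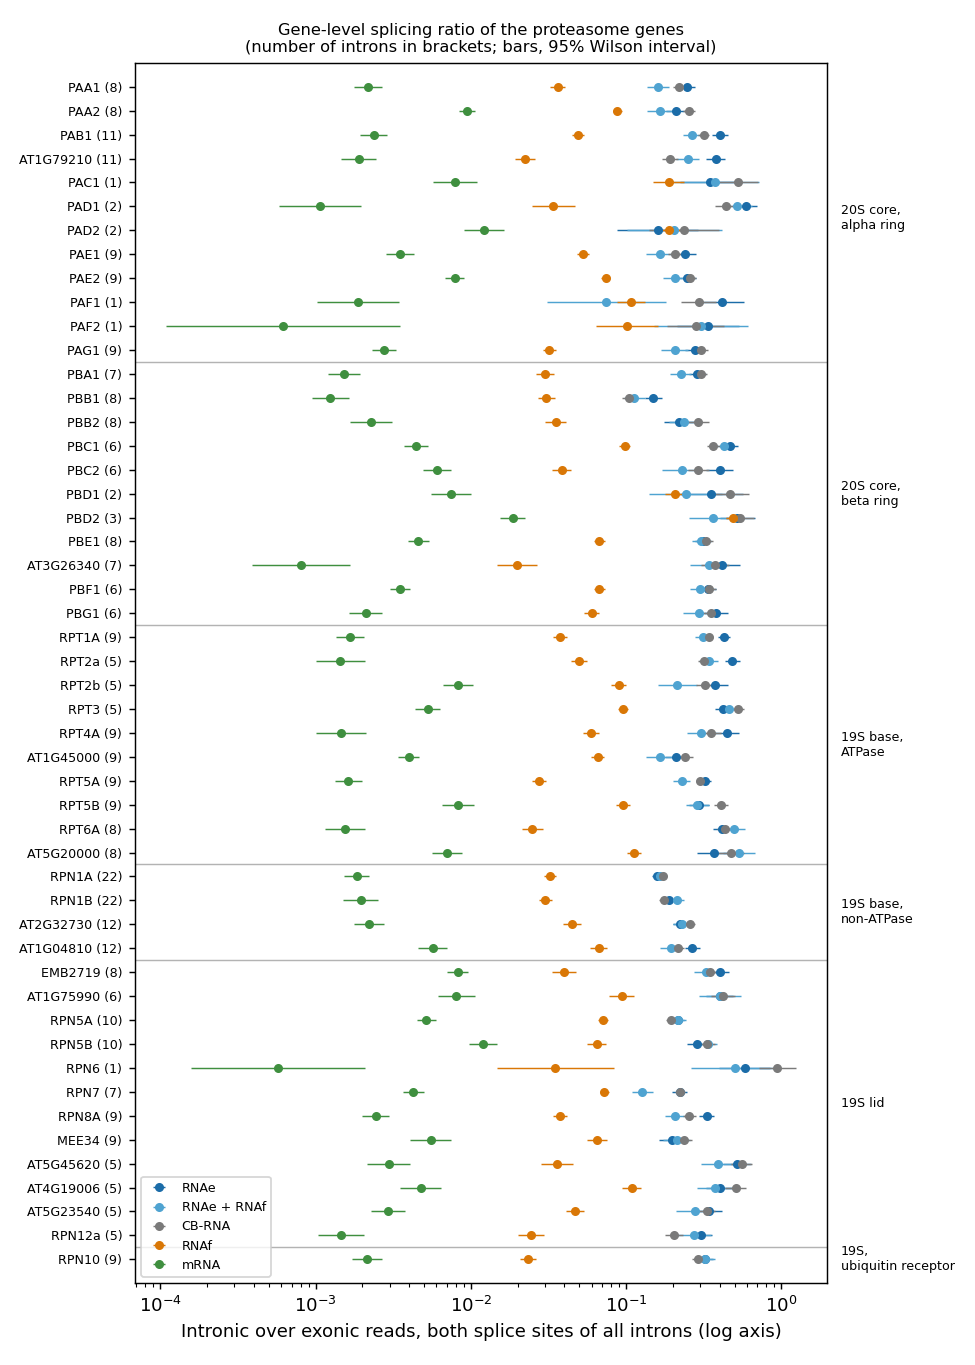
Gene-level ratio of each proteasome gene in RNAe, RNAe + RNAf, CB-RNA, RNAf and mRNA on a log axis (points, intronic over exonic reads; bars, 95% Wilson interval), with genes grouped by part of the proteasome and the number of introns in brackets. The RNAf points of PBD2 (0.487), PBD1 (0.207), PAD2 (0.19) and PAC1 (0.188) lie above the lowest RNAe point (0.15), and the median RNAf point is 0.0561.

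In the alpha ring of the 20S core (12 genes), the median gene ratio was 0.308 in RNAe, 0.206 in RNAe + RNAf, 0.268 in CB-RNA, 0.0635 in RNAf and 0.00256 in mRNA. PAD1 had the highest gene ratio of all 50 genes in RNAe, at 0.588, with 0.034 in RNAf and 0.00106 in mRNA. PAC1, whose only counted intron lies in its 5ʹ UTR, had 0.347 in RNAe, 0.375 in RNAe + RNAf, 0.528 in CB-RNA, 0.188 in RNAf and 0.00788 in mRNA. PAC1 was called higher in RNAe than in RNAf (adjusted p = 0.0237, Fisher's exact test). PAF1, also with a single intron, stood apart by its spread within the chromatin-bound preparations. PAF1 reached 0.412 in RNAe, against 0.0746 in RNAe + RNAf (adjusted p = 0.00111, Fisher's exact test). CB-RNA stood between them at 0.294, and PAF1 had 0.108 in RNAf and 0.00188 in mRNA. The value in RNAe + RNAf rested on 5 intronic reads over 67 exonic reads.

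In the beta ring (11 genes) the median gene ratio was 0.354 in RNAe, 0.297 in RNAe + RNAf, 0.341 in CB-RNA, 0.0601 in RNAf and 0.00349 in mRNA. The beta ring held both the highest and the lowest gene of the list in RNAf. PBD2 had 0.522 in RNAe, 0.364 in RNAe + RNAf, 0.5425 in CB-RNA, 0.487 in RNAf and 0.0186 in mRNA. AT3G26340, the other copy of PBE1, had 0.417 in RNAe, 0.0198 in RNAf and 0.000808 in mRNA. PBB1, a subunit of the protease chamber, had the lowest ratio of the list in RNAe, at 0.15, with 0.113 in RNAe + RNAf, 0.104 in CB-RNA, 0.0307 in RNAf and 0.00125 in mRNA.

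In the ring of RPT ATPases of the 19S base (10 genes) the median was 0.395 in RNAe, 0.31 in RNAe + RNAf, 0.346 in CB-RNA, 0.0624 in RNAf and 0.00282 in mRNA. RPT6A had 0.416 in RNAe, 0.494 in RNAe + RNAf, 0.434 in CB-RNA, 0.0249 in RNAf and 0.00155 in mRNA. The scaffold genes of the base, RPN1A, RPN1B, AT2G32730 and AT1G04810, were the lowest part of the list in RNAe, with a median of 0.206, and had 0.0385 in RNAf and 0.00208 in mRNA. RPN1A and RPN1B each have 22 introns, the largest number on the list. RPN1A had 0.158 in RNAe, 0.166 in RNAe + RNAf, 0.172 in CB-RNA, 0.0324 in RNAf and 0.00183 in mRNA.

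In the lid (12 genes) the median was 0.337 in RNAe, 0.303 in RNAe + RNAf, 0.333 in CB-RNA and 0.0557 in RNAf. RPN5B had the highest gene ratio of the lid in mRNA, with 0.288 in RNAe, 0.0647 in RNAf and 0.012 in mRNA. Intron 1 of RPN5B weighed heavily in this, with 0.709 in RNAf and 0.0494 in mRNA. The other introns of RPN5B had at most 0.0565 in RNAf and 0.0285 in mRNA. RPN6 has a single counted intron, in its 5ʹ UTR, with 0.583 in RNAe, 0.5 in RNAe + RNAf, 0.944 in CB-RNA, 0.035 in RNAf and 0.000571 in mRNA. RPN10, a receptor for ubiquitin chains, had 0.323 in RNAe, 0.32 in RNAe + RNAf, 0.293 in CB-RNA, 0.0232 in RNAf and 0.00215 in mRNA. Between the 20S core and the 19S particle the medians were close, at 0.338 and 0.331 in RNAe, 0.0601 and 0.0494 in RNAf, and 0.00275 and 0.00295 in mRNA. The order of the 20S core and the 19S particle in RNAe and in mRNA turned round when intron ratios were averaged in place of summing reads.

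Single introns of a gene differed far more than genes did. Among the 242 proteasome introns with at least 50 exonic reads in every group, 183 had a ratio under 0.05 in RNAf and 13 had 0.2 or more. RNAf was at or above RNAe in 6 of these introns, and 225 had the order RNAe over RNAf over mRNA. In RNAe 30 of them had 0.5 or more and 36 had under 0.1. In mRNA 16 had 0.01 or more. The share of all introns in the order RNAe over RNAf over mRNA was not counted. At the 5ʹ SS, 89.7% of all introns tested were higher in RNAe than in RNAf, against 95.75% of proteasome introns. For RNAf over mRNA the shares were 83.2% and 89.25%.

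Among the introns with at least 50 exonic reads in every group, the highest in RNAf was RPN5B intron 1, the GC intron printed first above. Its ratio was 0.661 in RNAe, 0.609 in RNAe + RNAf, 0.518 in CB-RNA, 0.709 in RNAf and 0.0494 in mRNA. All 4 chromatin-bound fractions were thus alike in level and mRNA alone was low. The difference of RNAf over mRNA passed the test at the 5ʹ SS (adjusted p = 2.071e-28, Fisher's exact test) and at the 3ʹ SS (adjusted p = 5.288e-16, Fisher's exact test). That of RNAe over RNAf did not, with adjusted p of 0.963 and 0.747 (Fisher's exact test). In each chromatin-bound fraction the 5ʹ SS stood above the 3ʹ SS, at 0.985 and 0.482 in RNAf. Of the 3 RefSeq transcripts that span this intron, 1 keeps it in an exon.

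RPT2b intron 1 had 0.427 in RNAe, 0.434 in RNAe + RNAf, 0.475 in CB-RNA, 0.491 in RNAf and 0.0268 in mRNA. It passed the test in RNAf over mRNA at the 5ʹ SS (adjusted p = 1.482e-50, Fisher's exact test) and not in RNAe over RNAf (adjusted p = 0.794, Fisher's exact test). RPT2a intron 1, at the same place in the other copy, had 0.2545 in RNAe, 0.185 in RNAe + RNAf, 0.402 in CB-RNA, 0.0154 in RNAf and no intronic read over 3730 exonic reads in mRNA, which allows a ratio of up to 0.00103. In RNAf the intervals of these introns did not overlap, at 0.417 to 0.578 for RPT2b and 0.00858 to 0.0278 for RPT2a.

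RPN7 intron 1, in a lid gene, had 0.277 in RNAe, 0.283 in RNAe + RNAf, 0.35 in CB-RNA, 0.393 in RNAf and 0.0171 in mRNA. It was the proteasome intron called lower in RNAe than in RNAf, at the 5ʹ SS with 0.236 in RNAe and 0.3825 in RNAf (adjusted p = 0.0419, Fisher's exact test). At the 3ʹ SS the values were 0.316 in RNAe and 0.403 in RNAf and did not pass (adjusted p = 0.284, Fisher's exact test). Against mRNA, RNAf was higher at both sites, with adjusted p of 6.11e-119 and 1.246e-129 (Fisher's exact test).

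RPN5A intron 5 had 0.38 in RNAe, 0.395 in RNAe + RNAf, 0.425 in CB-RNA, 0.301 in RNAf and 0.0164 in mRNA. MEE34 intron 5, in a lid gene, had 0.621 in RNAe, 0.2895 in RNAe + RNAf, 0.5 in CB-RNA, 0.4 in RNAf and 0.0404 in mRNA. EMB2719 intron 1, in the 5ʹ UTR of a lid gene, was the highest intron in mRNA, with 0.579 in RNAe, 0.436 in RNAe + RNAf, 0.562 in CB-RNA, 0.112 in RNAf and 0.0543 in mRNA. EMB2719 intron 1 passed the test in RNAf over mRNA at the 5ʹ SS (adjusted p = 0.0285, Fisher's exact test) and not at the 3ʹ SS (adjusted p = 0.0525, Fisher's exact test).

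Under the same limit of 50 exonic reads in every group, the 5 introns highest in RNAe were other introns than the 5 highest in RNAf. PAD1 intron 2 had 1.01 in RNAe, 1.03 in RNAe + RNAf, 0.965 in CB-RNA, 0.0336 in RNAf and 0.00149 in mRNA. Its difference of RNAe over RNAf passed at the 5ʹ SS (adjusted p = 6.31e-33, Fisher's exact test) and at the 3ʹ SS (adjusted p = 2.512e-45, Fisher's exact test). RPN1B intron 18 had 0.8235 in RNAe, 0.382 in RNAe + RNAf, 0.369 in CB-RNA, 0.00827 in RNAf and no intronic read in mRNA. PBC1 introns 5 and 4, neighbours in a beta ring gene, had 0.818 and 0.813 in RNAe, and 0.284 and 0.159 in RNAf. RPT1A intron 6 had 0.792 in RNAe and 0.0374 in RNAf. Under that limit the lowest introns in RNAe were AT1G45000 intron 5 at 0.0247, RPN1A intron 8 at 0.0256, PAA1 intron 1 at 0.0315, RPN1B intron 16 at 0.032 and RPN1A intron 20 at 0.04.

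The 5 GC introns make up 1.34% of proteasome introns, against 0.961% of all introns. They stand at the same intron number in both copies of PAA (intron 5) and in both copies of RPN5 (intron 1), and the fifth is RPT5B intron 4. All 5 carry AGT at bases 4 to 6 of the intron, read on the transcribed strand, against 48.02% of all GC introns, 22.1% of proteasome GT introns and 17.2% of all GT introns. RPN5A intron 1 had 0.108 in RNAe, 0.129 in RNAe + RNAf, 0.0913 in CB-RNA, 0.0437 in RNAf and 0.00363 in mRNA. It was thus far below RPN5B intron 1 in every fraction. RPN5A intron 1 also held many exonic reads in RNAe, at 1299 against 160 at the last intron of RPN5A. These counts were 703 and 118 in RNAe + RNAf, 2223 and 518 in CB-RNA, 870 and 2048 in RNAf, and 4413 and 5149 in mRNA. At introns 2 to 6, 9 and 10 RPN5A was above RPN5B in RNAe, though its gene ratio was lower (0.215 against 0.288). PAA2 intron 5 had 0.209 in RNAe, 0.0704 in RNAe + RNAf, 0.2615 in CB-RNA, 0.138 in RNAf and 0.0298 in mRNA. PAA1 intron 5 had 0.506 in RNAe, 0.431 in RNAe + RNAf, 0.496 in CB-RNA, 0.176 in RNAf and 0.00843 in mRNA. RPT5B intron 4 had 0.0417 in RNAe, 0.213 in RNAe + RNAf, 0.359 in CB-RNA, 0.0654 in RNAf and 0.00756 in mRNA. The GC introns were added after the RNAf ratio of RPN5B intron 1 and the mRNA ratio of PAA2 intron 5 were seen. The medians below draw on those values, so they describe these introns and test nothing. In RNAf these 5 GC introns had a median ratio of 0.138, against 0.0278 for the 367 GT introns of proteasome genes, and each of the 5 lay above that GT median. The order was the other way in RNAe, at 0.209 for GC and 0.293 for GT introns. The medians were 0.213 and 0.2105 in RNAe + RNAf, 0.359 and 0.268 in CB-RNA, and 0.00843 and 0.00171 in mRNA. Over all genes the median ratio in RNAf was 0.0869 for GC introns and 0.0533 for GT introns. GC introns were the higher over all genes in the other groups as well. The GC and GT medians over all genes were 0.372 and 0.327 in RNAe and 0.318 and 0.279 in RNAe + RNAf. They were 0.334 and 0.301 in CB-RNA, and 0.018 and 0.00751 in mRNA. The lower RNAe value of GC introns was thus seen in the 5 proteasome introns and not over all genes.

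PBE1 and PBD2 each hold an exon with few reads in mRNA. PBE1 encodes a beta subunit with a protease site. Its exon of 72 bases between introns 3 and 4 had 42 exonic reads in RNAe, 31 in RNAe + RNAf, 101 in CB-RNA, 217 in RNAf and 53 in mRNA. The exons on either side had 150, 96, 193, 976 and 5112 reads in RNAe, RNAe + RNAf, CB-RNA, RNAf and mRNA. The exon thus had 0.28, 0.323, 0.523, 0.222 and 0.0104 of the reads of its neighbours in that order of groups. The reads on the intron side of its 2 borders, 53, 39, 111, 220 and 54 in the same order, were about as many as those on the exon. Of the 3 RefSeq transcripts, 2 hold the exon and 1 skips it.

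The exon of 48 bases between introns 2 and 3 of PBD2, a beta ring gene, gave another order of groups. It had 20 exonic reads in RNAe, 2 in RNAe + RNAf, 18 in CB-RNA, 383 in RNAf and 48 in mRNA. Its neighbours had 75, 65, 158, 435 and 2871 reads in the same order, so that the exon had 0.267, 0.0308, 0.114, 0.8805 and 0.0167 of their reads. RNAf was the group in which the exon came close to its neighbours. Reads on the intron side of its borders were again about as many, at 18, 5, 21, 396 and 47. Of the 2 RefSeq transcripts, 1 holds the exon and 1 skips it.

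**Figure D3:**
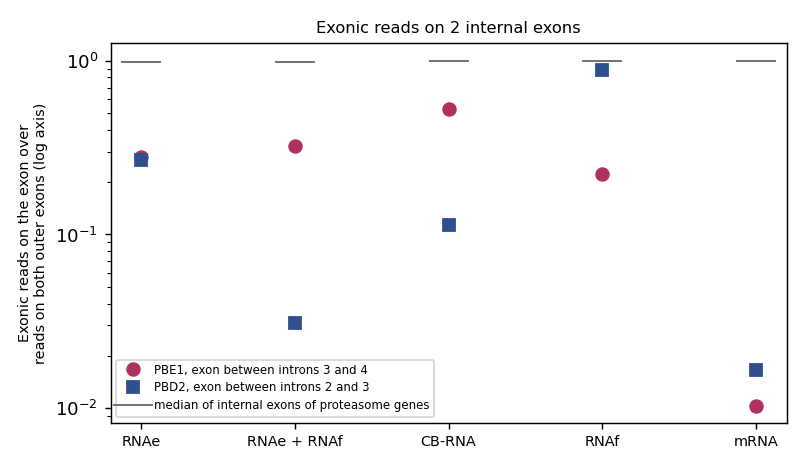
Exonic reads on the PBE1 exon and the PBD2 exon over those on the exons on either side, in each fraction on a log axis (lines, median over the internal exons of proteasome genes). In RNAf the PBD2 exon stands at 0.8805 and the PBE1 exon at 0.222, and in mRNA they stand at 0.0167 and 0.0104, with the median of internal exons at 1.

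Of the 322 internal exons of proteasome genes that could be counted in mRNA, these 2 were under 0.2 of their neighbours (0.621%), against 0.491% of 81122 internal exons over all genes. At such an exon the SS ratio reads against few exonic reads. In mRNA, PBE1 intron 3 had a 5ʹ SS ratio of 0.00836 and a 3ʹ SS ratio of 1.05, and intron 4 had 1 and 0.0119. PBD2 intron 2 had 0.0129 and 0.783 in mRNA, and intron 3 had 1.16 and 0.0169. RNAf was higher than mRNA at the outer sites alone, as at the 3ʹ SS of PBD2 intron 3 (adjusted p = 3.888e-77, Fisher's exact test), with adjusted p of 0.913 at its 5ʹ SS (Fisher's exact test).

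The gene-level values of PBD2 rested on these introns. Without introns 2 and 3, a choice made after their reads were seen, PBD2 had 0.288 in RNAe, 0.186 in RNAe + RNAf, 0.2535 in CB-RNA, 0.00494 in RNAf and 0.00712 in mRNA. RNAf then had 2 intronic reads over 405 exonic reads, and the direction of RNAf over mRNA turned round. PBD2 intron 1 alone did not pass in RNAf over mRNA (adjusted p = 0.816 at the 5ʹ SS and 0.7145 at the 3ʹ SS, Fisher's exact test), and it did in RNAe over RNAf (adjusted p = 1.443e-05 at the 5ʹ SS, Fisher's exact test). Without introns 3 and 4, PBE1 had 0.258 in RNAe, 0.237 in RNAe + RNAf, 0.23 in CB-RNA, 0.0293 in RNAf and 0.00189 in mRNA, in the same order as before.

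The list holds 19 pairs of gene copies, whose coding sequences match at 76.8% to 94.4% of the positions of their alignment, gaps included. Reads that aligned to several places were left out of the tables, which can lower the counts of both copies. The ratio of the copy with the higher value over that with the lower had a median of 1.22 in RNAe, 1.255 in RNAe + RNAf, 1.2 in CB-RNA, 2.18 in RNAf and 2.505 in mRNA. The 95% Wilson intervals of the copies lay apart in 6 pairs in RNAe, 7 in RNAe + RNAf, 7 in CB-RNA, 14 in RNAf and 13 in mRNA. In 10 pairs they lay apart in both RNAf and mRNA, and the same copy was the higher in all 10. Some of these differences rested on few introns. Without introns 2 and 3, PBD2 had 0.00494 in RNAf, below PBD1 at 0.207. Without introns 3 and 4, PBE1 had 0.0259 to 0.0332 as its interval in RNAf, which overlaps that of AT3G26340 (0.0148 to 0.0265). In RNAf RPT2b was above RPT2a at introns 1 and 5 and below it at introns 2 to 4. In 12 pairs the intervals of the copies lay apart in RNAf and not in RNAe. The share of other pairs of genes with intervals apart was not counted, so these counts of pairs have no background. Over the 50 genes of the list the gene ratio ran from 0.15 to 0.588 in RNAe and from 0.0198 to 0.487 in RNAf. Whether copies differ more than any 2 genes of the list was not tested.

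**Figure D4:**
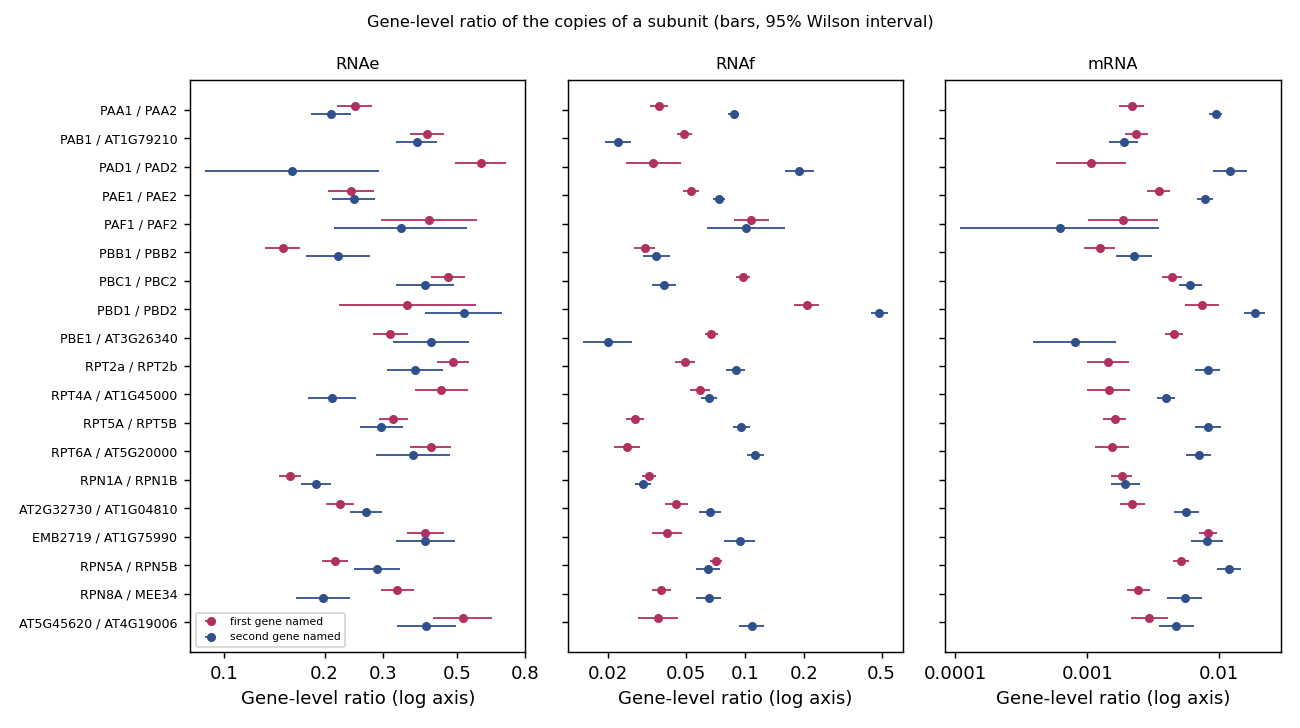
Gene-level ratios of the copies of 19 subunits in RNAe, RNAf and mRNA on log axes that differ between panels (points; bars, 95% Wilson interval). The PAD2 and PAD1 points are 5.58-fold apart in RNAf and 11.4-fold apart in mRNA, with PAD2 higher in both, and PAD2 is the lower of the pair in RNAe.

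PAD2 and PAD1 were the pair furthest apart in RNAe, RNAf and mRNA, though not in RNAe + RNAf or CB-RNA. PAD2 had 0.16 in RNAe and PAD1 had 0.588. In RNAf PAD2 had 0.19 (0.159 to 0.226) and PAD1 had 0.034 (0.0247 to 0.0469). In mRNA PAD2 had 0.0121 and PAD1 had 0.00106. Most of it lay in intron 2, with 0.27 in PAD2 and 0.0336 in PAD1 in RNAf. In RNAe PAD2 had 9 intronic over 15 exonic reads at intron 2 and 3 over 60 at intron 1, so that its gene value there rested on few reads.

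AT5G20000 and RPT6A, the closest copies in sequence, are neighbours on chromosome 5. AT5G20000 had 0.113 (0.102 to 0.125) in RNAf and RPT6A had 0.0249 (0.0213 to 0.0291). In RNAe AT5G20000 had 0.369 and RPT6A had 0.416, and their intervals overlapped. In RNAf the largest differences lay at the last introns, with 0.21 at intron 7 and 0.309 at intron 8 of AT5G20000, against 0.0247 and 0.0316 in RPT6A. RPT5B had 0.0961 in RNAf and RPT5A had 0.0274. PBD2 had 0.487 in RNAf and PBD1 had 0.207, and PBE1 had 0.0673 and AT3G26340 0.0198, where both PBD2 and PBE1 hold the exons described above. PAF1 and PAF2 overlapped in every fraction, with 0.108 and 0.101 in RNAf.

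In mRNA the copy with fewer exonic reads had the higher ratio in 14 of the 19 pairs, and in 11 of the 13 whose intervals lay apart. Over all pairs the count was 7 of 19 in RNAe, 11 of 19 in RNAe + RNAf, 11 of 19 in CB-RNA and 10 of 19 in RNAf. Over the pairs apart it was 4 of 6 in RNAe, 4 of 7 in RNAe + RNAf, 4 of 7 in CB-RNA and 9 of 14 in RNAf. Exonic reads enter both quantities, so these counts are a description.

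Along the gene, ratios were higher at the last intron than at the first in RNAe. In the 43 proteasome genes with at least 3 introns the median of last minus first was 0.164 in RNAe, with 31 genes higher at the last intron and 12 lower. It was 0.0972 over all genes, of which 61.5% were higher at the last. The median difference was 0.0613 in RNAe + RNAf, 0.0606 in CB-RNA, 0.00736 in RNAf and 0.000546 in mRNA. In RNAf 24 of the 43 genes were higher at the last intron (55.8%), close to an even split and to the 53.5% of all genes. Over all genes the median difference was 0.0191 in RNAe + RNAf, 0.0457 in CB-RNA, 0.00716 in RNAf and 0.00251 in mRNA.

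**Figure D5:**
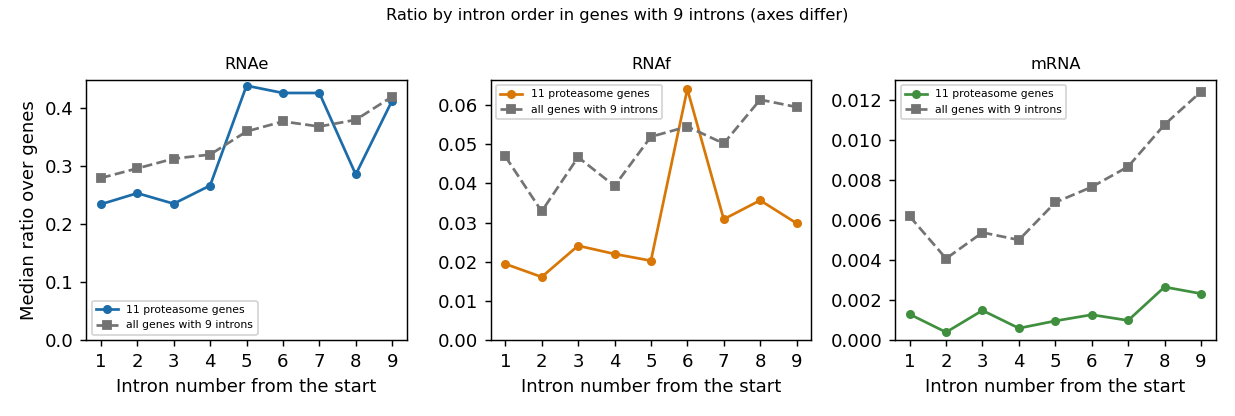
Median ratio at each intron, numbered from the start of the gene, over the 11 proteasome genes with 9 introns and over all genes with 9 introns, in RNAe, RNAf and mRNA (the axes differ between panels). In RNAe the proteasome genes stand at 0.234 at intron 1 and at 0.439 at intron 5, and in RNAf the highest point is intron 6, at 0.064.

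The 11 proteasome genes with 9 introns did not climb evenly. In RNAe their medians were 0.234, 0.2535, 0.235 and 0.267 at introns 1 to 4, then 0.439, 0.426 and 0.426 at introns 5 to 7, 0.286 at intron 8 and 0.413 at intron 9. Over all genes with 9 introns the median was 0.28 at intron 1 and 0.42 at intron 9. In RNAf the proteasome medians were 0.0195 at intron 1, 0.064 at intron 6 and 0.0298 at intron 9.

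Exonic reads along the gene separated RNAf from the other fractions. The log2 ratio of exonic reads at the last over the first intron had a median of 1.31 in RNAf, with more reads at the last intron in all 43 genes, against 97.03% of all genes. It was -0.07 in RNAe, where 20 of 43 genes had more at the last. It was 0.25 in RNAe + RNAf, 0.47 in CB-RNA and 0.22 in mRNA. Over all genes the medians were -0.26 in RNAe, 0.24 in RNAe + RNAf, 0.22 in CB-RNA, 1.45 in RNAf and 0.38 in mRNA.

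In RNAe, genes with more introns had lower ratios. Introns in genes with 1 to 3 introns had a median of 0.412 in RNAe (13 introns of 8 genes), against 0.328 in genes with 5 to 8, 0.294 in genes with 9 to 12 and 0.145 in RPN1A and RPN1B with 22 introns. Across the 50 genes, Spearman's rho between the number of introns and the gene ratio was -0.496 in RNAe, -0.381 in RNAf and -0.00121 in mRNA. Over all genes it was -0.433 in RNAe, -0.577 in RNAf and -0.196 in mRNA. These points share libraries, and genes are not replicates. The match of the 5ʹ SS to the usual bases, scored against all introns, had a rho of -0.208 with the RNAf ratio over 367 introns, against -0.126 over all introns.

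Levels of the genes were compared as exonic reads per splice site window, scaled to 1000000 exonic reads in each fraction. This scale allows for the number of introns but not for the distribution of reads along a gene, which differed between fractions. Proteasome introns held 0.299% of all exonic reads in RNAe, 0.292% in RNAe + RNAf, 0.274% in CB-RNA, 0.3335% in RNAf and 0.521% in mRNA. The log2 level of mRNA over RNAe had a median of 1.13 over the 50 genes, with 42 above 0, against -0.33 over 14772 genes, of which 41.15% were above 0. These values have no replicate test.

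All 23 genes of the 20S core had a higher level in mRNA than in RNAe, with a median log2 of 1.32, as had 19 of 27 genes of the 19S particle, with a median of 0.79. PBF1, a beta ring gene, had the highest level in mRNA, at 16.6 scaled reads per window, with 5.72 in RNAe. PBD1 had the widest step, at 6.18 in mRNA and 1.08 in RNAe. The 4 scaffold genes of the base were all lower in mRNA than in RNAe, with a median log2 of -0.28. RPN1A, for example, had 6.1 in mRNA and 7.35 in RNAe. These scaffold genes are also long, at 5263 to 5878 bases, and an effect of gene length on the levels was not tested. In RNAf over RNAe the median log2 level was 0.74 for the 20S core and -0.04 for the 19S particle, against -0.01 over all genes.

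The other genes of the pathway were a list of 21 genes for variants of subunits, assembly factors, shuttle receptors, deubiquitinating enzymes and transcription factors of proteasome genes. Of these, 20 could be counted in RNAf, with a median gene ratio of 0.106 in RNAf and 0.0122 in mRNA. In RNAf over mRNA 18 of the 20 were higher, where the background was 95.7%. AT4G15165, with 0.838 in RNAf and 0.663 in mRNA, and AT1G53780, with 0.117 in RNAf and 0.117 in mRNA, did not pass (adjusted p = 0.135 and 0.942, Fisher's exact test). In RNAe over RNAf all 19 that could be tested were higher, with a background of 86.1%. The highest in RNAf after AT4G15165 were NAC053, a transcription factor of the proteasome stress response, at 0.174, RAD23B, a shuttle receptor for ubiquitinated proteins, at 0.154, and AT3G53970 at 0.153.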

How the data were processed

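Chromatin-bound RNA and mRNA of Arabidopsis seedlings were sequenced as paired-end libraries. Per the submitters' processing notes and the study's methods, reads were trimmed with Trimmomatic (version 0.39), mapped to TAIR10 with HISAT2 (version 2.2.0) and handled with SAMtools (version 1.3.1), reads with more than 1 alignment were excluded, and FPKM came from StringTie. SS ratios were made for genes above an FPKM minimum, on the longest transcript. The authors deposited, for each intron and splice site, the exonic read count, the intronic read count and their ratio, in 1 table per group with all libraries together. The width of the counting windows and the way libraries were joined are not given in the sources used here. The deposited ratios equalled intronic over exonic reads to within 5e-05, and neighbouring windows may share reads.

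Ratios, sums, medians and two-sided Fisher's exact tests were computed in Python 3.11.15 with scipy 1.17.1, pandas 2.3.3, numpy 2.4.6 and Biopython 1.88, and figures with matplotlib 3.10.9. An intron entered the test where each group had 10 or more exonic reads. P-values were adjusted over all introns tested (Benjamini-Hochberg, threshold 0.05). The gene-level test (20 or more exonic reads in each group) was added after the tables were seen. The design had allowed for replicate columns, and the tables held none. For pairs of copies, non-overlap of 95% Wilson intervals is given in place of the planned test between copies. On simulated data for RNAf over mRNA at the 5ʹ SS (95204 introns, 200 of them changed 3-fold), 49.5% of changed introns were recovered and 0.00105% of unchanged introns were called. The members and gene lists were chosen with earlier results of these data known. Introns were named by rule: the 5 highest in RNAe, RNAf and mRNA and the 5 lowest in RNAe among those with at least 50 exonic reads in every group, and the 5 largest called differences of RNAf over mRNA at each site; the GC introns, the copies of named introns and the introns beside the 2 exons were added after values were seen. Coordinates of the tables were checked against RefSeq TAIR10.1, where 98.8% of 121135 introns were GT to AG. No marker of seedling tissues was examined.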

Additional observations from a re-analysis of the deposited data

How the results depend on the processing

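Of 180 values recomputed under another setting, 148 stayed within the limits set, 30 moved and 2 changed direction; the cause was not tested. With an adjusted p of at most 0.01 (Fisher's exact test), counts of proteasome introns became 0 for lower in RNAe than in RNAf at the 5ʹ SS (also 0 with at least a 2-fold difference), 1 for higher and 0 for lower in RNAe than in RNAe + RNAf at the 5ʹ SS, 0 for higher there at the 3ʹ SS, and, in CB-RNA over RNAe + RNAf, 1 higher and 1 lower at the 5ʹ SS and 1 higher and 0 lower at the 3ʹ SS. With at least 30 exonic reads, or at least 1, the count lower in RNAe than in RNAe + RNAf at the 5ʹ SS was 1. Taking summed reads in place of the median over introns gave 0.246 for RNAe + RNAf, 0.0484 for RNAf and 0.00311 for mRNA at the 5ʹ SS, and 0.06025 for RNAf and 0.00369 for mRNA at the 3ʹ SS. Averaging intron ratios turned the 20S minus 19S difference of medians to -0.0193 in RNAe, against 0.00727, and to 0.000917 in mRNA, against -0.000199. The pairs of copies with intervals apart were 2 in RNAe, 3 in RNAe + RNAf and 3 in CB-RNA at the 3ʹ SS alone, and 3 in RNAe + RNAf at the 5ʹ SS alone. Leaving out RPT6A and AT5G20000 moved none of the 10 median SS ratios beyond the limits. No paired analysis was possible because each group's libraries stand in 1 pooled table, with no replicate columns. For the same reason no library could be left out. Depth limits RNAe + RNAf by its exonic reads, where 93.55% of proteasome introns had 10 or more exonic reads at the 5ʹ SS, and mRNA by its 4139 intronic reads.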

Other observations

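The COP9 signalosome is a nuclear complex related to the lid of the 19S particle, and it removes the NEDD8 tag from cullin ubiquitin ligases. Its 10 genes had a median gene ratio of 0.385 in RNAe, 0.331 in RNAe + RNAf, 0.349 in CB-RNA, 0.0746 in RNAf and 0.00623 in mRNA. All 10 were higher in RNAe than in RNAf, with a background of 86.1%, and all 10 were higher in RNAf than in mRNA, with a background of 95.7% (Fisher's exact test with Benjamini-Hochberg adjustment over all genes). The highest in RNAf were CSN5B at 0.1245, FUS5 at 0.109, CSN6A at 0.0884 and COP13 at 0.08. The log2 level of mRNA over RNAe had a median of -0.01 over these genes, with 5 of 10 above 0.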
